A study of Homo sapiens with 12 samples.

Results

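The genes described here are 38 enzymes, regulators and lipid droplet proteins of fatty acid and triglyceride synthesis, listed by symbol and looked up by Ensembl identifier in the read count table of RNA from T84 cells. T84 cells come from a human colon carcinoma, are an established line and form an epithelium in culture. Of the 38 genes, 37 were found among the 48162 identifiers, and ACACA was matched to none and is not analysed here. The desaturase gene SCD5 was read 2 to 10 times a library and fell below the expression filter, so 36 of the 38 genes were among the 15630 tested.

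The libraries fall into 4 groups of 3, all from confluent T84 cells whose medium had been exchanged for Hanks buffered saline: pH 6.0 for 6 h, pH 7.4 for 6 h, pH 6.0 for 3 h and pH 7.4 for 3 h. The pH 7.4 cells were thus also without culture medium, and no cells left in medium are analysed here. The labels give no culture of origin for the libraries, so the p-values measure the spread between these libraries only, which may be technical. Library totals ran from 15383041 to 20525403 counts at pH 6.0 and 6 h, from 16574741 to 18921141 at pH 7.4 and 6 h, from 13912532 to 18205946 at pH 6.0 and 3 h, and from 16865263 to 24331032 at pH 7.4 and 3 h.

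Fatty acid synthesis begins in the cytosol, where ATP citrate lyase and acetyl-CoA synthetase make acetyl-CoA, acetyl-CoA carboxylase turns it into malonyl-CoA, and fatty acid synthase builds palmitate from both. Elongases and desaturases lengthen the chain and add double bonds, and long-chain acyl-CoA synthetases activate free fatty acids for use. Triglyceride is then built on glycerol 3-phosphate by glycerol-3-phosphate acyltransferases, lysophosphatidate acyltransferases, the lipin phosphatases and diacylglycerol acyltransferases, and is stored in droplets coated by perilipins. Many of these genes are known targets of the transcription factor SREBP-1, the product of SREBF1, which is held in the endoplasmic reticulum with SCAP by the INSIG proteins when sterols are plentiful. Epithelial cells of the small intestine are known for rebuilding triglyceride from absorbed fatty acids, while T84 cells come from the colon.

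The level of each named gene is given below as CPM, counts scaled to 1000000 per library with TMM factors, for the 3 libraries of a group in the order of their replicate numbers. Differences are log2 fold changes ± SE from edgeR's quasi-likelihood test over all 15630 genes, and a gene is called higher or lower where its Benjamini-Hochberg adjusted p was under 0.05. In bulk RNA, fewer cells making a transcript cannot be told apart from less of it per cell.

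The identity and state of the libraries was checked with marker lists. The 12 intestinal epithelial markers, led by KRT8, summed to far more than any other marker list: 11060 to 12020 CPM at pH 6.0 and 6 h, 8782 to 9102 at pH 7.4 and 6 h, 10290 to 10620 at pH 6.0 and 3 h and 9413 to 10240 at pH 7.4 and 3 h. Of these 12, 6 were called higher and 2 lower at pH 6.0 at 6 h, against 21.9% and 25.1% of all tested genes. The part of these markers in the results was not tested. Sums for fibroblast, leukocyte, endothelial and adipocyte markers were under 34 CPM in every library, and MS4A1 of the leukocyte list and ADIPOQ of the adipocyte list had no count in any. Replicate 2 of the pH 7.4 group at 6 h stood apart with 33.6 CPM of fibroblast markers, of which COL1A1 made up 14.0 CPM, against 0.23 and 0.73 CPM of COL1A1 in the other libraries of its group. The fibroblast sum ran from 8.15 to 11.9 CPM at pH 6.0 and 6 h. Mitochondrially encoded genes took 7.14% to 7.40% of counts at pH 6.0 and 6 h, against 7.97% to 8.97% at pH 7.4 and 6 h, and their part in the results was not tested.

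At 6 h, 21 of the 36 tested genes were higher and 6 were lower at pH 6.0 than at pH 7.4, while 47% of all tested genes changed, 21.9% higher and 25.1% lower. The higher genes were ACLY, ACSS2, AACS, FASN, SREBF1, SCD, FADS1, all 5 elongation genes, 4 of the 5 long-chain acyl-CoA synthetase genes, AGPAT1, LPIN1, LPIN3, DGAT2 and PLIN2. The lower genes were GPAM, GPAT3, GPAT4 and AGPAT3 of the glycerolipid acyltransferases, the phosphatase gene LPIN2 and the synthetase gene ACSL6. The median log2 fold change of the 36 genes was 0.32, and that of all tested genes was 0.00. The pH 6.0 libraries lay wholly above the pH 7.4 libraries for 21 of the 36 genes and wholly below them for 7, against 26.9% and 29.7% of all tested genes. Of the called genes, 9 were higher and 2 were lower by at least 1.5-fold, against 1477 and 2056 of all 15630 tested genes. Without replicate 2 of the pH 7.4 group, the library with the collagen counts, 19 genes were higher and 6 lower, the calls of DGAT2 and LPIN3 being lost.

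At 3 h, 9 of the 36 genes were higher and 1 was lower at pH 6.0, while 18.8% of all tested genes changed, 9.53% higher and 9.26% lower. The higher genes were ACLY, ACSS2, SCD, HSD17B12, ACSL1, ACSL3, ACSL4, ACSL5 and PLIN2, each of which was also higher at 6 h, and the lower gene was GPAT4, also lower at 6 h. The median was 0.09, against 0.00 for all tested genes, and no called member reached 1.5-fold. Among all 15630 tested genes, 591 were called higher and 422 lower by at least that fold. The pH 6.0 libraries lay wholly above the pH 7.4 libraries for 11 genes and wholly below them for 3, against 16.7% and 16.3% of all tested genes. The 3 h count rests on few libraries: it was 5 (4 higher, 1 lower) without replicate 2 or without replicate 3 of the pH 6.0 group, and 6 (5 higher, 1 lower) without replicate 1 of the pH 7.4 group. With library totals in place of TMM factors it was 5 higher and 2 lower, and with no expression filter 6 higher and 3 lower. Over all genes, 1489 were higher and 1448 lower in the main fit. Those counts became 1194 and 1752 with library totals, and 1375 and 1880 with no filter.

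**Figure D1:**
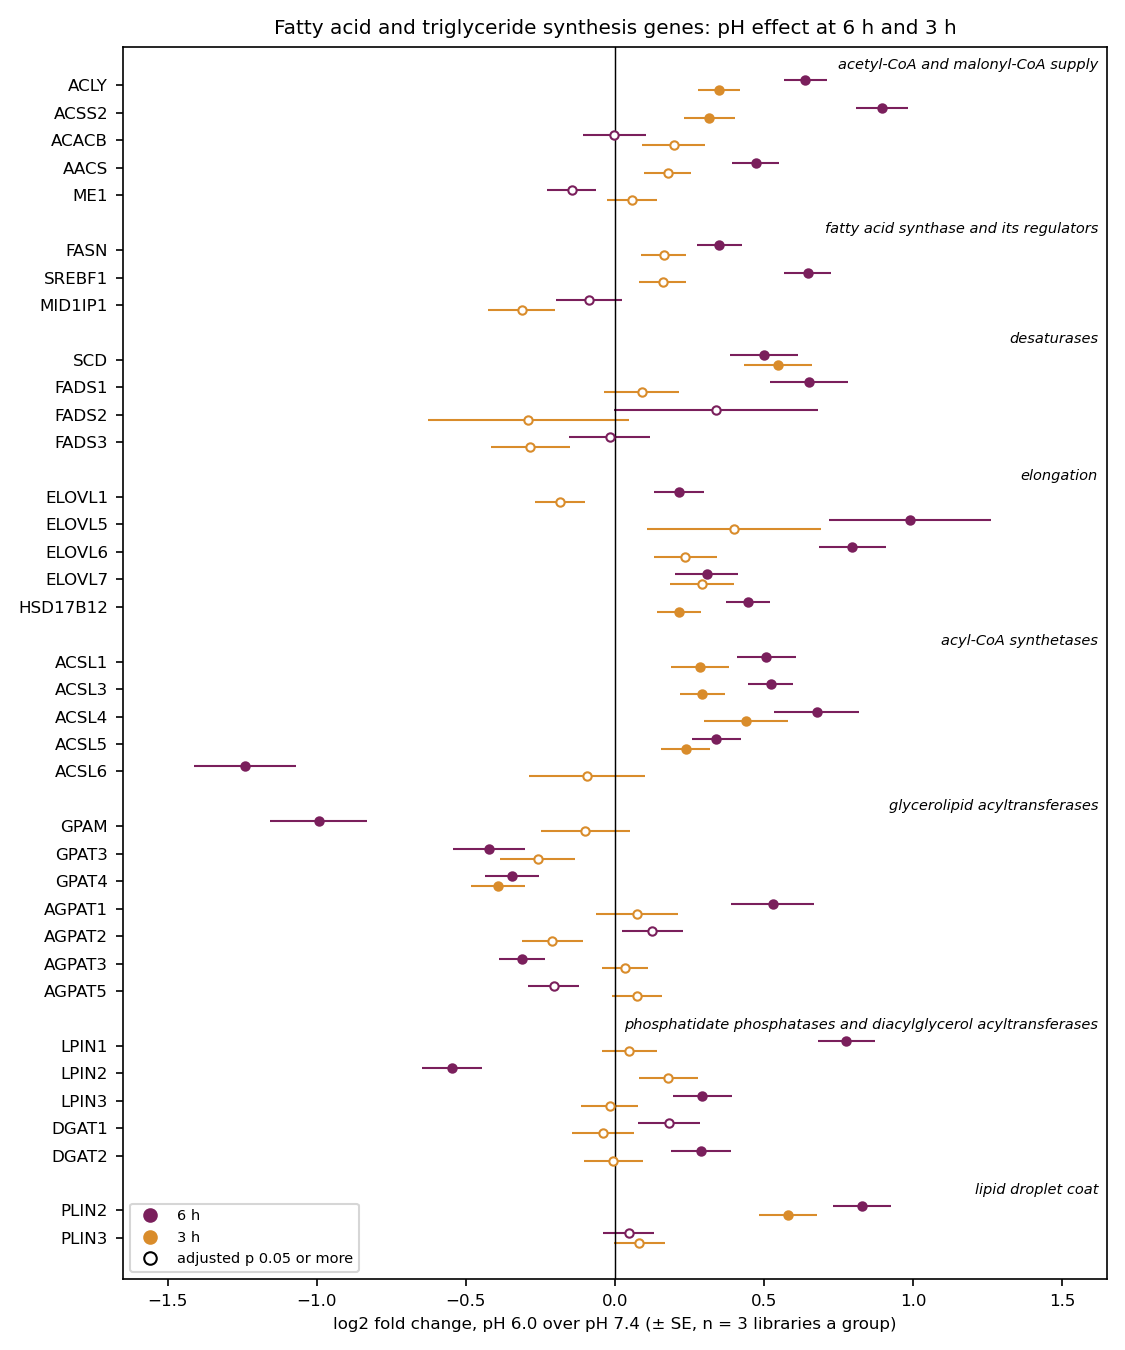
The log2 fold change of pH 6.0 over pH 7.4 at 6 h (purple) and 3 h (orange) for the 36 tested genes, grouped by role, with bars of 1 SE and open points where the adjusted p was 0.05 or more. At 6 h the points from acetyl-CoA supply to acyl-CoA synthetases lie mostly to the right of 0, apart from ACSL6 at -1.24, and most glycerolipid acyltransferases lie to the left, GPAM at -0.99.

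Because many of these genes are SREBP-1 targets in other settings, the promoter windows of RefSeq (GRCh38.p14, 250 bases before to 50 after each start) were searched on both strands for the sterol regulatory element core TCACNCCAC. A window was found for 31 of the 38 genes, and not for FASN, HSD17B12, GPAT4, AGPAT5, LPIN3, DGAT1 and DGAT2. A gene can have several windows: the 31 genes had 57, and all 27305 genes had 35116. The core was in a window of 3 of these genes, ACSL1, ACSL6 and MID1IP1, against 1.09% of all genes with a window and 0 of 16 genes of the cholesterol synthesis and uptake list. These 3 differ in their values: at 6 h and pH 6.0 ACSL1 was higher, ACSL6 was lower and MID1IP1 passed no test. The stretch of ACSL6 (chr5:131999694-131999943, minus strand) and 30 bases of ACSL1 (chr4:184805774-184805803, minus strand) are shown because they hold the core, in capitals and in its reverse orientation, and each lies downstream of the gene's first annotated start. Shown beside them is the stretch before a start of ACSS2 (chr20:34874739-34874941, plus strand), which had the largest rise at 6 h after the sparsely read ELOVL5, with a reversed GC box and a reversed CCAAT box in capitals. The stretch of GPAM (chr10:112183766-112184015, minus strand), a gene that was lower, has a reversed GC box in capitals. No window of ACSS2 or GPAM holds the core. Only exact letters within 250 bases were searched, so a missing match does not show that a site is absent.
ACSL6: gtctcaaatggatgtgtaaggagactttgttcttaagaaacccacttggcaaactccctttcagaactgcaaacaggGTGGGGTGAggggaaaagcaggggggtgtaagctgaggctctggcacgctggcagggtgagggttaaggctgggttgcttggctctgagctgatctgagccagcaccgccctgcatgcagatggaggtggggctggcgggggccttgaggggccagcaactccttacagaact
ACSL1: gtggagcaGTGGGGTGActttgctgctggc
ACSS2: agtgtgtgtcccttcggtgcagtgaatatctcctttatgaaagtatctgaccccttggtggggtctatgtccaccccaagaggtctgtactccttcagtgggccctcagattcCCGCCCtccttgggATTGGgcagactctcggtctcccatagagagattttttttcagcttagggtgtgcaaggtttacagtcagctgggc
GPAM: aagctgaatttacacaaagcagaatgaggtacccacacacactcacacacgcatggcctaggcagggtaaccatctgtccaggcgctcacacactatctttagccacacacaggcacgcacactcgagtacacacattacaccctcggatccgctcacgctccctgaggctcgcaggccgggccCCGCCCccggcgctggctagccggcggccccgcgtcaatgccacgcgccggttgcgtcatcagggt

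Other motifs were searched in the same windows. The CCAAT box (CCAAT), where NF-Y is known to bind, was in windows of 15 of the 31 genes, against 37% of all genes and 14 of 16 genes of the cholesterol list. These were ACLY, ACSS2, SCD, ELOVL1, ELOVL5, ACSL1, ACSL3 and AGPAT1, which were higher at 6 h, AGPAT3, which was lower, ACACB, MID1IP1, FADS3 and PLIN3, which were not called, and ACACA and SCD5, which were not tested. The GC box (GGGCGG) was in windows of 28 of the 31, against 46.2% of all genes, 72.8% of the genes tested here and 15 of 16 cholesterol genes. The E-box CACGTG was in windows of ELOVL5, PLIN2 and LPIN2, against 7.73% of all genes. The full cAMP response element TGACGTCA was in windows of ELOVL5 and FADS1, against 2.03% of all genes. Its short form TGACGT, which also counts within the full form, was in windows of 6 genes, ACACB, ACSL4, ACSL6, ELOVL5, FADS1 and GPAT3, against 8.62% of all genes. A match is a run of letters in these windows and not a measured site.

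By level per transcript length, the authors' RPKM, the desaturase gene SCD stood first, with 357 ± 40.8 RPKM at pH 6.0 and 6 h, against 261 ± 16.7 at pH 7.4 (mean ± SD, n = 3 each). AGPAT2, a lysophosphatidate acyltransferase gene, came next with 236 ± 25.3 RPKM at pH 6.0 and 223 ± 19.7 at pH 7.4. These were followed by ACSS2 (119 ± 9.55 at pH 6.0, 65.8 ± 1.29 at pH 7.4) and ACSL5 (116 ± 10.1 at pH 6.0, 94.2 ± 4.70 at pH 7.4), whose order differs between the pH values. At the other end of the tested genes, which leave out the barely read SCD5, FADS2, the delta-6 desaturase gene, had 0.418 ± 0.0911 RPKM at pH 6.0 and 0.344 ± 0.155 at pH 7.4. Summed over the 37 genes found, the members took 6200.0 ± 334 CPM at pH 6.0 and 6 h, against 4683 ± 93.9 at pH 7.4. Without SCD, which alone took 2003 ± 239.7 CPM at pH 6.0 and 1417 ± 84.4 at pH 7.4, the sums were 4197 ± 94.4 CPM at pH 6.0 and 3265 ± 39.0 CPM at pH 7.4. At 3 h the sums without SCD were 4059 ± 125 CPM at pH 6.0 and 3661 ± 44.4 CPM at pH 7.4.

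Of the 5 tested genes of acetyl-CoA and malonyl-CoA supply, 3 were higher at 6 h and 2 at 3 h, and none was lower. Among all tested genes, 21.9% were higher and 25.1% lower at 6 h, and 9.53% higher and 9.26% lower at 3 h. ACLY (ENSG00000131473), which splits citrate into acetyl-CoA and oxaloacetate, had 364, 354 and 358 CPM at pH 6.0 and 6 h, against 229, 229.5 and 233 CPM at pH 7.4. The log2 fold change was 0.64 ± 0.07 (adjusted p = 2.18e-07). Its 3 h values were 336, 364 and 337 CPM at pH 6.0, against 261, 269.9 and 284 at pH 7.4 (0.35 ± 0.07, adjusted p = 0.00167). The groups did not overlap at either time. ACSS2 (ENSG00000131069), which makes acetyl-CoA from acetate, had 399, 343 and 400.2 CPM at pH 6.0 and 6 h, against 203, 202 and 208 at pH 7.4, a 1.86-fold difference (0.90 ± 0.09, adjusted p = 2.28e-08). The values at 3 h were 288, 355 and 293 CPM at pH 6.0, against 239.8, 259 and 253 at pH 7.4 (0.32 ± 0.09, adjusted p = 0.0132). Replicate 2 was the highest of the pH 6.0 libraries at 3 h, and the 3 h call was lost without it, at 0.21, and without replicate 1 of the pH 7.4 group, at 0.28. AACS, which makes acetoacetyl-CoA from ketone bodies, had 143, 129 and 151 CPM at pH 6.0 and 6 h, against 99.0, 102 and 104 at pH 7.4 (0.47 ± 0.08, adjusted p = 4.84e-05). At 3 h it had 131 to 146 CPM at pH 6.0, against 116 to 130.1 at pH 7.4 (0.18 ± 0.08), wholly apart but not past the test. The remaining genes of this step were not called at either time: ACACB, the mitochondrial acetyl-CoA carboxylase gene, had 0.00 ± 0.11 at 6 h and 0.20 ± 0.11 at 3 h, and ME1, the cytosolic malic enzyme that yields NADPH, had -0.14 ± 0.08 at 6 h and 0.06 ± 0.08 at 3 h.

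FASN and its regulator SREBF1 were higher at 6 h. SREBF1 (ENSG00000072310) had 242, 273 and 251 CPM at pH 6.0 and 6 h, against 157, 170.3 and 162 at pH 7.4, 1.57-fold higher (0.65 ± 0.08, adjusted p = 7.4e-07). At 3 h it had 253, 231 and 228 CPM at pH 6.0, against 222, 195 and 219 at pH 7.4 (0.16 ± 0.08, adjusted p = 0.157). The libraries of the 2 pH values were wholly apart at 3 h too, though the test was not passed. FASN (ENSG00000169710), fatty acid synthase, had 599.9, 618 and 588 CPM at pH 6.0 and 6 h, against 443, 495 and 478 at pH 7.4 (0.35 ± 0.08, adjusted p = 0.0006). Its 3 h values were 671, 723 and 653 CPM at pH 6.0, against 618, 613 and 596 at pH 7.4 (0.16 ± 0.08, adjusted p = 0.131). The pH 7.4 libraries at 6 h were the lowest of all for FASN and for SREBF1. MID1IP1, which encodes a protein known to promote the polymerisation of acetyl-CoA carboxylase, had -0.09 ± 0.11 at 6 h and -0.31 ± 0.11 at 3 h (adjusted p = 0.547 and 0.0549).

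Among the desaturases, SCD was higher at both times and FADS1 at 6 h. SCD (ENSG00000099194), the delta-9 desaturase that makes oleate, had 2096, 1731 and 2182 CPM at pH 6.0 and 6 h, against 1360.1, 1378 and 1514 at pH 7.4 (0.50 ± 0.11, adjusted p = 0.00117). The values at 3 h were 1775, 2483 and 2061 CPM at pH 6.0, against 1263, 1563 and 1497 at pH 7.4 (0.55 ± 0.11, adjusted p = 0.00223). The difference was of nearly the same size at both times, and the libraries of each group spread more widely than those of ACLY. FADS1, the delta-5 desaturase of polyunsaturated fatty acids, had 12.4, 13.6 and 14.2 CPM at pH 6.0 and 6 h, against 9.36, 7.52 and 8.70 at pH 7.4 (0.65 ± 0.13, adjusted p = 0.000283). At 3 h its groups overlapped, with 11.1 to 13.3 CPM at pH 6.0 and 10.6 to 12.2 at pH 7.4 (0.09 ± 0.13). FADS2 gave 0.34 ± 0.34 at 6 h with a wide error at its low level, and FADS3, a less studied member of the family, gave -0.02 ± 0.14. At 3 h FADS2 gave -0.29 ± 0.34 and FADS3 gave -0.28 ± 0.13, and neither gene passed the test at either time. SCD5 had 2 to 6 counts a library at pH 6.0 and 6 h, 2 to 5 at pH 7.4 and 6 h, 6 to 8 at pH 6.0 and 3 h and 2 to 10 at pH 7.4 and 3 h.

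All 5 elongation genes were higher at pH 6.0 at 6 h, against 21.9% of all tested genes. ELOVL6, which lengthens palmitate to stearate, had 30.8, 25.9 and 31.3 CPM at pH 6.0 and 6 h, against 17.9, 16.8 and 15.9 at pH 7.4, 1.74-fold higher (0.80 ± 0.11, adjusted p = 4.49e-06). At 3 h it had 30.2, 38.4 and 33.6 CPM at pH 6.0, against 29.6, 30.5 and 26.5 at pH 7.4 (0.24 ± 0.11, adjusted p = 0.123), with groups that overlapped. HSD17B12, the ketoacyl-CoA reductase of the elongation cycle, had 236, 211 and 217 CPM at pH 6.0 and 6 h, against 165, 160.1 and 162 at pH 7.4 (0.45 ± 0.07, adjusted p = 3.33e-05). Its pH 6.0 libraries were also all above the pH 7.4 libraries at 3 h, 179.9 to 201 against 164 to 169 CPM (0.22 ± 0.07, adjusted p = 0.0431), a call lost under 12 of 20 other settings at the same threshold. ELOVL5, an elongase of polyunsaturated chains, was read at a low level, with 3.60, 3.94 and 2.80 CPM at pH 6.0 and 6 h, against 1.28, 1.99 and 1.95 at pH 7.4 (0.99 ± 0.27, adjusted p = 0.0046). ELOVL7, an elongase of long saturated and unsaturated chains, had 35.4, 31.8 and 33.0 CPM at pH 6.0 and 6 h, against 29.4, 27.8 and 23.7 at pH 7.4 (0.31 ± 0.11, adjusted p = 0.0202). The call of ELOVL7 at 6 h was lost without replicate 3 of the pH 7.4 group, at 0.22. ELOVL1, the elongase of very long saturated chains, was the weakest of the 5 at 6 h (0.22 ± 0.08, adjusted p = 0.0385), a call lost under 7 of 20 other settings. At 3 h its pH 6.0 libraries lay below the pH 7.4 libraries without passing the test, 54.5 to 61.4 against 63.3 to 68.7 CPM (-0.18 ± 0.08, adjusted p = 0.129).

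Of the 5 long-chain acyl-CoA synthetase genes, 4 were higher at both times, and the exception was ACSL6. The share of all tested genes that was higher was 21.9% at 6 h and 9.53% at 3 h. ACSL3, which is known to sit on nascent lipid droplets, had 257, 226 and 246 CPM at pH 6.0 and 6 h, against 172, 162 and 173 at pH 7.4 (0.52 ± 0.08, adjusted p = 6.55e-06). Its 3 h values were 192, 215 and 214 CPM at pH 6.0, against 168, 168 and 172 at pH 7.4 (0.29 ± 0.08, adjusted p = 0.00921). The pH 7.4 values of ACSL3 stayed within 162 to 173 CPM over both times, and the pH 6.0 values all exceeded them. ACSL4, which prefers arachidonate, had 163, 123 and 156 CPM at pH 6.0 and 6 h, against 99.3, 78.5 and 98.4 at pH 7.4 (0.68 ± 0.14, adjusted p = 0.00107). ACSL1, the main synthetase of liver and fat, had 48.6, 43.9 and 54.5 CPM at pH 6.0 and 6 h, against 33.7, 34.1 and 35.4 at pH 7.4 (0.51 ± 0.10, adjusted p = 0.000241). ACSL5, the most abundant of the family and known from the intestine, had 366 to 439 CPM at pH 6.0 and 6 h, against 305 to 332 at pH 7.4 (0.34 ± 0.08, adjusted p = 0.00176). At 3 h the 3 genes gave 0.44 ± 0.14 for ACSL4, 0.29 ± 0.10 for ACSL1 and 0.24 ± 0.08 for ACSL5 (adjusted p = 0.0425, 0.0442 and 0.0467), with calls lost under 5, 12 and 11 of 20 other settings. ACSL6, best known from brain, went the other way, with 5.91, 4.80 and 4.98 CPM at pH 6.0 and 6 h, against 13.7, 12.8 and 10.4 at pH 7.4 (-1.24 ± 0.17, adjusted p = 3.35e-06). The values at 3 h were 3.06, 3.79 and 3.44 CPM at pH 6.0, against 4.49, 3.24 and 3.05 at pH 7.4 (-0.09 ± 0.20). The pH 7.4 libraries at 6 h were thus the only ones above 6 CPM. Other genes share 15.8% of the exon bases of ACSL6, among them AC026398.1 on the same strand. The counts of ACSL6 are thus uncertain in part, whether or not counting used strand.

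Of the 7 tested acyltransferase genes that build phosphatidate, 4 were lower and 1 was higher at 6 h, and 1 was lower at 3 h. The shares of all tested genes were 25.1% lower and 21.9% higher at 6 h, and 9.26% lower at 3 h. GPAM, the mitochondrial glycerol-3-phosphate acyltransferase and itself a known SREBP-1 target, had 5.98, 4.50 and 5.87 CPM at pH 6.0 and 6 h, against 10.3, 9.94 and 12.1 at pH 7.4 (-0.99 ± 0.16, adjusted p = 3.48e-05). At 3 h it had 8.84, 11.9 and 12.1 CPM at pH 6.0, against 10.8, 13.4 and 10.9 at pH 7.4 (-0.10 ± 0.15, adjusted p = 0.692). GPAM was thus 1.99-fold lower at 6 h with groups apart, while the 3 h groups overlapped. GPAT4, the endoplasmic reticulum acyltransferase also found on droplets, had 27.9, 29.5 and 28.2 CPM at pH 6.0 and 6 h, against 35.4, 35.9 and 37.5 at pH 7.4 (-0.34 ± 0.09, adjusted p = 0.0034). Its 3 h values were 27.2, 30.9 and 27.6 CPM at pH 6.0, against 37.6, 35.1 and 39.6 at pH 7.4 (-0.39 ± 0.09, adjusted p = 0.00438), so the difference was there at both times. GPAT3, the other endoplasmic reticulum enzyme, had 11.7 to 13.2 CPM at pH 6.0 and 6 h, against 14.9 to 17.9 at pH 7.4 (-0.42 ± 0.12, adjusted p = 0.00623). Its 3 h libraries were wholly below as well, 7.79 to 9.38 CPM at pH 6.0 against 10.3 to 11.1 at pH 7.4 (-0.26 ± 0.13, adjusted p = 0.158), without passing the test.

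Of the lysophosphatidate acyltransferases, AGPAT3 was lower and AGPAT1 higher at 6 h. AGPAT3 had 111, 111 and 109 CPM at pH 6.0 and 6 h, against 131, 141 and 139 at pH 7.4 (-0.31 ± 0.08, adjusted p = 0.00184). AGPAT1 had 9.65, 9.91 and 9.35 CPM at pH 6.0 and 6 h, against 7.15, 7.14 and 5.72 at pH 7.4 (0.53 ± 0.14, adjusted p = 0.0032), but 30.2% of its exon bases are shared with other genes. At 3 h AGPAT3 gave 0.03 ± 0.08 and AGPAT1 gave 0.07 ± 0.14, with groups that overlapped for both. AGPAT2, the most abundant of the family per transcript length, gave 0.13 ± 0.10 at 6 h and -0.21 ± 0.10 at 3 h, and AGPAT5 gave -0.21 ± 0.09 at 6 h and 0.07 ± 0.08 at 3 h; no call was made for either. Correcting the counts for gene length and GC content ended the 6 h calls of GPAT4 and AGPAT3, each at -0.10.

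The lipins, which turn phosphatidate into diacylglycerol, moved in opposite directions at 6 h. LPIN1 had 55.7, 57.0 and 52.1 CPM at pH 6.0 and 6 h, against 30.9, 32.0 and 33.3 at pH 7.4, 1.71-fold higher (0.78 ± 0.09, adjusted p = 6.86e-07). The values at 3 h were 44.0, 53.2 and 49.5 CPM at pH 6.0, against 43.4, 52.2 and 46.2 at pH 7.4 (0.05 ± 0.09, adjusted p = 0.763). LPIN2 had 36.9, 35.5 and 33.9 CPM at pH 6.0 and 6 h, against 51.6, 46.8 and 57.1 at pH 7.4, 1.46-fold lower (-0.55 ± 0.10, adjusted p = 0.00012). Thus LPIN1 exceeded LPIN2 in CPM in each library at pH 6.0 and 6 h, and LPIN2 exceeded LPIN1 in each at pH 7.4 and 6 h, a comparison of read shares that takes no account of transcript length. At 3 h LPIN2 had 43.4, 52.9 and 53.4 CPM at pH 6.0, against 40.5, 47.6 and 44.1 at pH 7.4 (0.18 ± 0.10, adjusted p = 0.217). LPIN3 had 43.3, 38.4 and 42.9 CPM at pH 6.0 and 6 h, against 35.0, 32.8 and 33.8 at pH 7.4 (0.29 ± 0.10, adjusted p = 0.0171). Its 3 h groups overlapped (-0.02 ± 0.10).

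Of the diacylglycerol acyltransferases, which make triglyceride itself, DGAT2 was higher at 6 h and DGAT1 was not called. DGAT2 had 44.6, 39.5 and 41.8 CPM at pH 6.0 and 6 h, against 36.5, 33.7 and 32.8 at pH 7.4 (0.29 ± 0.10, adjusted p = 0.0228), a call lost in 3 of 20 other settings, each the loss of 1 library of the 6 h groups. DGAT1 had 68.8, 65.7 and 77.3 CPM at pH 6.0 and 6 h, against 58.1, 69.9 and 58.6 at pH 7.4 (0.18 ± 0.10, adjusted p = 0.163). At 3 h DGAT2 gave 0.00 ± 0.10 and DGAT1 gave -0.04 ± 0.10, with overlapping groups for both. Of the droplet coat genes, PLIN2, whose protein covers droplets in most cells, was higher at both times, and PLIN3, the coat protein recruited to nascent droplets, was called at neither (0.05 ± 0.09 at 6 h, 0.08 ± 0.09 at 3 h). PLIN2 had 123, 91.5 and 126 CPM at pH 6.0 and 6 h, against 63.5, 64.0 and 64.1 at pH 7.4, 1.78-fold higher (0.83 ± 0.10, adjusted p = 4.57e-07). At 3 h it had 119, 131 and 124 CPM at pH 6.0, against 86.9, 77.9 and 85.7 at pH 7.4 (0.58 ± 0.10, adjusted p = 0.000236). PLIN2 had the smallest adjusted p of the 36 genes at 3 h. The reads of HSD17B12, PLIN3, LPIN3 and DGAT1 are uncertain in part, since 21.6%, 17.9%, 13.5% and 11.1% of their exon bases are shared with other genes.

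**Figure D2:**
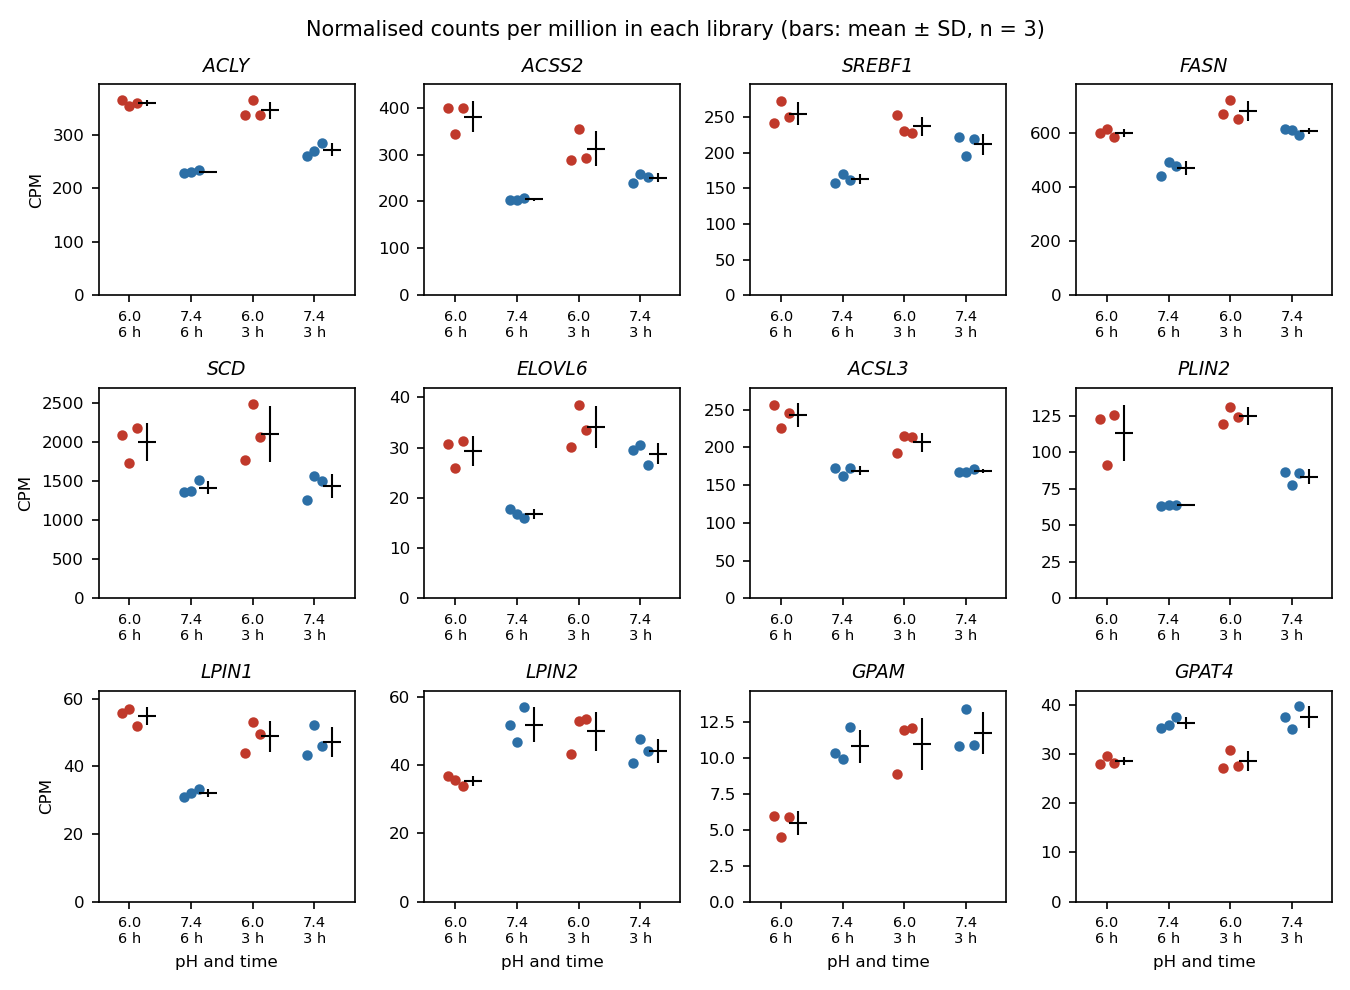
CPM of 12 of the genes in each library, with pH 6.0 in red and pH 7.4 in blue for 6 h and then for 3 h, and a bar at the mean with the SD of 3 libraries. For ACLY, SREBF1, ELOVL6 and LPIN1 the pH 7.4 libraries at 6 h are the lowest of the 4 groups, while for GPAM the pH 6.0 libraries at 6 h are the lowest, at 4.50 to 5.98 CPM.

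Time was compared within each pH, and most of the members that changed with time at pH 7.4 were lower at the later time. At pH 7.4, 3 of the 36 genes were higher and 12 were lower at 6 h than at 3 h, while 31.6% of all tested genes changed, 17.2% higher and 14.4% lower. The 6 h libraries lay wholly above the 3 h libraries for 4 genes and wholly below them for 14, against 22.7% and 20.7% of all tested genes. The lower genes were ACLY, ACSS2, AACS, FASN, SREBF1, FADS1, ELOVL6, ACSL1, LPIN1, LPIN3, DGAT2 and PLIN2. ELOVL6 had 16.9 CPM at 6 h, against 28.8 at 3 h, on average (-0.78 ± 0.11, adjusted p = 1.71e-05). LPIN1 had 32.1 CPM at 6 h, against 47.3 at 3 h (-0.56 ± 0.09, adjusted p = 0.000116). FASN had 472 CPM at 6 h, against 609 at 3 h (-0.37 ± 0.08, adjusted p = 0.000831), and SREBF1 gave -0.38 ± 0.08 (adjusted p = 0.000952). The genes higher at 6 h in pH 7.4 cells were ACSL6 (1.76 ± 0.17, adjusted p = 1.47e-07), GPAT3 (0.65 ± 0.12, adjusted p = 0.000298) and ME1 (0.36 ± 0.08, adjusted p = 0.00184). The pH contrast at 6 h and this time contrast share the pH 7.4 libraries of 6 h. For ELOVL6 the pH contrast at 6 h was 0.80 beside -0.78 with time at pH 7.4 and -0.22 with time at pH 6.0. For HSD17B12 and ACSL3 the pH contrasts of 0.45 and 0.52 stood beside -0.04 and 0.00 with time at pH 7.4.

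At pH 6.0, 6 of the 36 genes were higher and 4 were lower at 6 h than at 3 h, while 19.5% of all tested genes changed, 8.64% higher and 10.9% lower. The 6 h libraries lay wholly above the 3 h libraries for 11 genes and wholly below them for 7, against 16% and 19.6% of all tested genes. The higher genes were ACSS2 (0.29 ± 0.09), ELOVL1 (0.27 ± 0.08), ELOVL5 (0.90 ± 0.27), ACSL3 (0.23 ± 0.08), ACSL6 (0.61 ± 0.19) and GPAT3 (0.49 ± 0.13). The lower genes were GPAM, AGPAT3, AGPAT5 and LPIN2. The call of AGPAT3 was lost in 14 of 20 other settings, with -0.11 after the length and GC correction, that of ACSL3 in 5, those of ACSS2, ELOVL1, ELOVL5 and ACSL6 in 4 each, that of AGPAT5 in 3 and that of GPAT3 in 1. GPAM had 5.45 CPM at 6 h, against 10.9 at 3 h, on average (-1.01 ± 0.17, adjusted p = 0.000118). LPIN2 had 35.4 CPM at 6 h, against 49.9 at 3 h (-0.49 ± 0.10, adjusted p = 0.00136). In pH 7.4 cells these genes gave -0.12 ± 0.15 and 0.23 ± 0.10, and neither passed. This split depends on the scaling: with library totals in place of TMM factors it was 2 higher and 7 lower, and the median of the 36 genes was -0.01 instead of 0.08, while the length and GC correction gave 12 higher and 3 lower. All tested genes shifted the same way. Their split was 1351 higher and 1699 lower in the main fit, 773 and 2499 with library totals, and 2311 and 1525 with the correction. The count of members was 4 without replicate 3 of the pH 6.0 group at 3 h, and 6 and 5 without replicates 1 and 3 of the pH 6.0 group at 6 h.

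The pH effect itself differed between the times for 11 of the 36 genes, 7 with a more positive effect at 6 h than at 3 h and 4 with a more negative one, while 29.4% of all tested genes were called, 13.1% and 16.3% in these directions. The more positive ones were ACLY, ACSS2, SREBF1, FADS1, ELOVL1, ELOVL6 and LPIN1, led by LPIN1 with 0.73 ± 0.13 (adjusted p = 0.000386). The more negative ones were ACSL6, GPAM, LPIN2 and AGPAT3, led by ACSL6 with -1.15 ± 0.26 (adjusted p = 0.00239). For SCD the effect differed by -0.05 ± 0.16 (adjusted p = 0.859), and for PLIN2 by 0.25 ± 0.14 (adjusted p = 0.185), neither of which passed. The share of members called, 30.6%, was close to that of all tested genes. The call of AGPAT3 was lost in 6 of 19 other settings, with -0.12 after the length and GC correction, that of ACLY in 4, and those of ELOVL1 and FADS1 in 2 each. With that correction the split was 15 more positive and 3 more negative. Over all genes it was 2101 and 1621 with the correction, against 2048 and 2541 in the main fit.

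**Figure D3:**
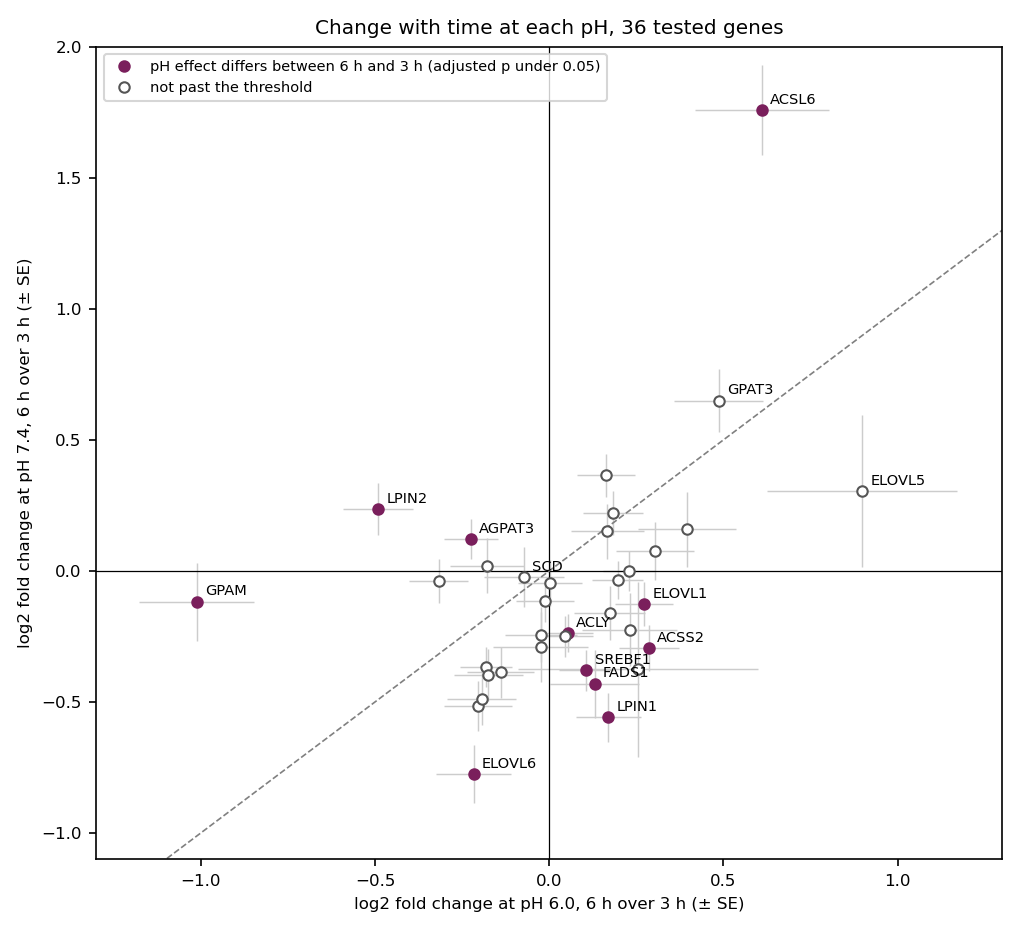
The log2 fold change of 6 h over 3 h at pH 6.0 (x axis) and at pH 7.4 (y axis) for the 36 tested genes, with bars of 1 SE, a dashed line where both are equal, and filled points where the pH effect differed between the times. LPIN1, SREBF1, FADS1, ACSS2 and ACLY lie to the right of 0 at pH 6.0 and below 0 at pH 7.4, GPAM and LPIN2 lie left of the line, and ACSL6 stands highest with 1.76 at pH 7.4.

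The genes that handle SREBP were set beside the members, and whether SREBP acted on the members was not tested. INSIG1, itself a known SREBP target, averaged 463 ± 36.2 CPM at pH 6.0 and 6 h, against 72.7 ± 5.02 at pH 7.4 (SD, n = 3 each; 2.67 ± 0.09, adjusted p = 9.71e-16). SREBF2, which encodes the factor of cholesterol synthesis genes, gave -0.07 ± 0.07 (adjusted p = 0.436), and SCAP, the escort protein, gave -0.10 ± 0.07 (adjusted p = 0.264). RNF145, a ubiquitin ligase known to act on SCAP, was lower (-1.46 ± 0.11, adjusted p = 2.52e-10), and INSIG2 was higher (0.37 ± 0.15, adjusted p = 0.0393). Of the 10 genes of this list, 2 were higher and 1 was lower at 6 h, against 21.9% and 25.1% of all tested genes. In the cholesterol synthesis and uptake list, 22 of 23 tested genes were higher and none was lower at 6 h, among them HMGCS1 (2.43 ± 0.08) and FDPS (2.74 ± 0.13). The median of that list was 0.78, against 0.32 for the fatty acid and triglyceride genes.

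Genes that feed or neighbour the pathway were counted in the same way at 6 h, when 21.9% of all tested genes were higher and 25.1% lower. Of 9 tested genes for cytosolic NADPH, the reductant of fatty acid synthesis, 8 were higher, including MTHFD1 of folate metabolism (0.52 ± 0.08, adjusted p = 2.26e-05). Of 12 tested genes for fatty acid uptake, binding and lipoprotein assembly, 6 were higher and none was lower, including the fatty acid binding protein gene FABP5 (1.11 ± 0.15, adjusted p = 4.71e-06) and DBI, the acyl-CoA binding protein gene (0.97 ± 0.15, adjusted p = 9.56e-05). Of 13 further tested genes of fatty acid and glyceride synthesis, 6 were higher and 4 lower. Among these MOGAT2, the monoacylglycerol acyltransferase of fat absorption in the intestine, was 2.30-fold higher (adjusted p = 0.000858), and ACSS1, the mitochondrial acetyl-CoA synthetase gene, was lower (-0.52 ± 0.09, adjusted p = 3.39e-05). The lysocardiolipin acyltransferase gene LCLAT1 was lower too (-0.56 ± 0.11, adjusted p = 0.000338). Of 7 other lipid droplet genes, 2 were higher and 1 lower, with 0.59 ± 0.10 for LDAF1, 0.47 ± 0.12 for FITM2 and -0.63 ± 0.22 for PLIN4.

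**Figure D4:**
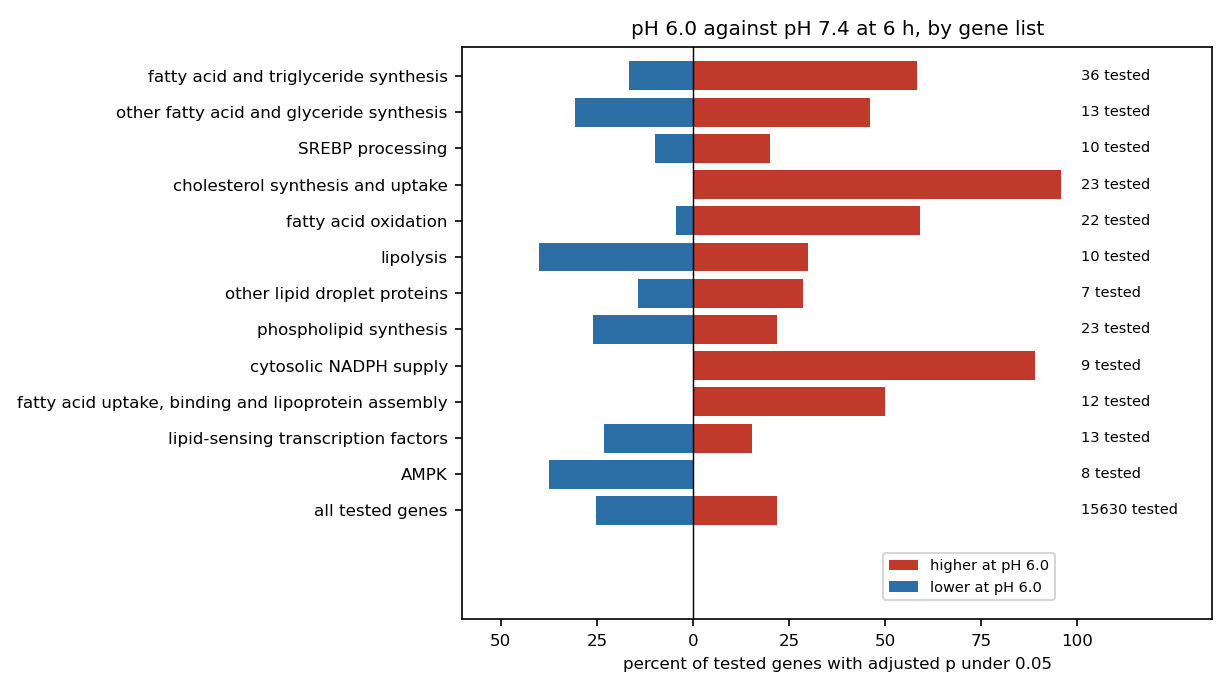
Percent of the tested genes of each list that were higher (red, to the right) or lower (blue, to the left) at pH 6.0 than at pH 7.4 at 6 h, with the number tested. The fatty acid and triglyceride genes (58.3% higher, 16.7% lower) lie above the share of all tested genes for higher calls and below it for lower calls.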

How the data were processed

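The 12 libraries hold RNA of T84 cells, 3 libraries for each combination of pH 6.0 or pH 7.4 with 6 h or 3 h. The deposited table gives a read count made by the authors for each of 48162 Ensembl genes. A deposited table per library adds RPKM values, which the authors made from these counts, and 100% of them were recovered from counts, totals and 1 length a gene (relative tolerance 1e-06). STAR, CASAVA and the build hg19 are named in the submitters' processing notes. Their versions, the annotation and the way of counting, including strand, were not given in the sources used here. Genes without a symbol took 0.881% to 1.11% of a library's counts.

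The 38 genes, their role groups, the other gene lists and the motifs were chosen with earlier results of these data known. Every gene of the 38 is accounted for. Library values are given for up to 4 called genes a role group, those with the smallest p at either time, and for SREBF1, FASN, SCD, DGAT1 and DGAT2. From other lists, up to 3 genes with the smallest p at 6 h are named, with INSIG1, SREBF2 and SCAP. COL1A1 was named after its values were seen. Symbols were matched through the name tables and GENCODE 29.

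The main test was edgeR 4.0.16 in R 4.3.3 (robust quasi-likelihood F test, TMM factors, default expression filter), fitted to the 4 groups together (12 libraries, 8 residual degrees of freedom), with Benjamini-Hochberg adjustment over 15630 genes at a threshold of 0.05. The biological coefficient of variation was 9.29%. Library pairs within groups were farther apart than sampling noise (5.40 to 19.5 in chi-square over its degrees of freedom, 12 pairs), so none was counted as a copy. The 23 alternatives were other scalings and filters, DESeq2 1.42.0, other thresholds, a fit of the compared groups only, a replicate block, offsets for GC content and gene length (GC known for 95.4% of genes with a count), each of the 12 libraries left out and another promoter comparison set. Promoters came from RefSeq (GRCh38.p14). Stretches are printed only where they overlap no GENCODE 29 exon, or as 30 bases. ACACA is not analysed here.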

Additional observations from a re-analysis of the deposited data

Results flagged for a closer look

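For 11 of the 36 tested genes the pH effect differed between 6 h and 3 h by a test of the difference itself, the interaction term of edgeR's quasi-likelihood fit with Benjamini-Hochberg adjustment over all 15630 genes. These are 30.6% of the members, and 29.4% of all tested genes were called in the same way. The values below are the log2 pH effect at 6 h minus that at 3 h, ± SE, with 3 libraries a group.

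The difference was positive for 7 genes. It was 0.73 ± 0.13 for the phosphatidate phosphatase gene LPIN1 (adjusted p = 0.000386). For ACSS2, which makes acetyl-CoA from acetate, it was 0.58 ± 0.12 (adjusted p = 0.00141). FADS1, the delta-5 desaturase gene, had 0.56 ± 0.18 (adjusted p = 0.0234), and the elongase gene ELOVL6 had 0.56 ± 0.15 (adjusted p = 0.00923). The regulator SREBF1 had 0.49 ± 0.11 (adjusted p = 0.00264), ELOVL1 had 0.40 ± 0.12 (adjusted p = 0.0145) and ACLY had 0.29 ± 0.10 (adjusted p = 0.0337). For ELOVL1 the pH effects had opposite signs, 0.22 ± 0.08 at 6 h and -0.18 ± 0.08 at 3 h, of which the 3 h value was not called.

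The difference was negative for 4 genes. It was -1.15 ± 0.26 for ACSL6 (adjusted p = 0.00239), -0.90 ± 0.22 for GPAM (adjusted p = 0.00476), -0.73 ± 0.14 for LPIN2 (adjusted p = 0.000723) and -0.35 ± 0.11 for AGPAT3 (adjusted p = 0.0188). LPIN2 also changed sign between the times, with a 3 h value of 0.18 ± 0.10 that was not called. The 3 h value of AGPAT3, 0.03 ± 0.08, was not called either. It ran from -0.03 to 0.08 over other settings, so its sign is not determined. The call of AGPAT3 was lost in 6 of 19 other settings, that of ACLY in 4, and those of ELOVL1 and FADS1 in 2 each.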

How the results depend on the processing

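Of 3554 gene values recomputed under the alternatives, 3335 stayed on their side of the threshold, 100 passed it newly, 116 lost it and 3 turned round. Turned round here means a change of sign with a call before or after. Values that changed sign without a call in either fit are among the 3335. The 3 that turned round did so with the correction for gene length and GC content: ACACB gave 0.31 for pH at 6 h and -0.27 for time at pH 7.4, and ACSL3 gave -0.23 for time at pH 7.4; the uncorrected values were near 0 and uncalled, and the cause was not tested.

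Of the 36 genes, 27 changed with pH at 6 h. Under the alternatives this count was 18 to 28, and 25 to 27 with a library left out. At 3 h 10 genes changed with pH, but 1 when tested against a fold of 1.2, 5 at an adjusted p under 0.01, and 5 to 13 with a library left out. Over time at pH 6.0 the count was 10, and 1 against a fold of 1.2, 3 at the stricter threshold and 4 to 12 with a library left out; length and GC correction gave 12 higher and 3 lower. Over time at pH 7.4 it was 15, and 6 against a fold of 1.2 and 14 to 16 with a library left out. The pH effect differed between the times for 11 genes, but for 5 against a fold of 1.2, 7 at the stricter threshold, 18 (15 higher, 3 lower) with length and GC correction and 9 to 16 with a library left out. Over all genes 2937 changed with pH at 3 h, and 700 against a fold of 1.2, 1345 at the stricter threshold and 1648 to 3617 with a library left out. Over all genes at 6 h, 7342 changed with pH and 4464 against a fold of 1.2. With time, 3050 changed at pH 6.0 (1058 against the fold, 1571 at the stricter threshold, 1915 to 3408 with a library left out) and 4942 at pH 7.4 (1666 and 2942). The effect differed for 4589 genes (2357 and 2536). With length and GC correction, 2311 of all genes were higher and 1525 lower over time at pH 6.0. The pH effect was then more positive for 2101 and more negative for 1621.

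With the replicate number as a block, the counts were 28 for pH at 6 h, 11 for pH at 3 h, 10 and 15 for time at pH 6.0 and pH 7.4, and 11 for the difference. Deviations of same-numbered libraries correlated at -0.05 to 0.23 over 12 pairs, with 2 over 0.1, and the numbers were not taken to pair the samples. In the pH contrasts alone, same-numbered libraries gave -0.03 to 0.23 and different-numbered ones -0.14 to 0.06. Whether the numbers pair libraries within a time cannot be decided from these values. Over all genes the block gave 3231 for pH at 3 h, against 2937 in the main fit. Against the promoters of the tested genes instead of all genes, the E-box share was 11%, that of the CCAAT box 41.1%, of the GC box 72.8%, and of the cAMP response element 3.39% in full and 12.5% in short form.

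Limits are the 3 libraries a group, whose origin in separate cultures is not given, and the low counts of FADS2, ELOVL5 and SCD5.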

Other observations

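Genes that consume, release or redirect fatty acids were counted at 6 h, pH 6.0 against pH 7.4. At that time 47% of all tested genes changed, 21.9% higher and 25.1% lower. Of 22 tested genes of fatty acid oxidation, 13 were higher and 1 was lower, among them HADH (0.54 ± 0.08, adjusted p = 1.73e-05), HADHB (0.47 ± 0.08, adjusted p = 5.14e-05) and ACAA1 (0.48 ± 0.08, adjusted p = 2.72e-05), which encode enzymes of the oxidation spiral in mitochondria and peroxisomes. Of 10 lipolysis genes, from a list of lipases and proteins that regulate them, 3 were higher and 4 lower. MGLL, which splits monoacylglycerol, was lower (-0.77 ± 0.12, adjusted p = 1.17e-05), as was the diacylglycerol lipase gene DAGLA (-0.84 ± 0.11, adjusted p = 1.78e-06), while PNPLA3, a droplet protein known as an SREBP-1 target, was higher (1.29 ± 0.20, adjusted p = 1.82e-05). Of 23 phospholipid synthesis genes, 5 were higher and 6 lower, near the shares of all tested genes. PCYT1A, the rate-limiting enzyme of phosphatidylcholine synthesis, had -0.73 ± 0.08 (adjusted p = 3.4e-07), CDS1, which draws phosphatidate into CDP-diacylglycerol, had -0.72 ± 0.09 (adjusted p = 6.96e-07), and choline kinase CHKA had -0.61 ± 0.10 (adjusted p = 2.61e-05).

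Of 13 lipid-sensing transcription factor genes, 2 were higher and 3 lower at 6 h, both below the shares of all tested genes. PPARG, the fatty acid receptor of adipocytes and colon epithelium, averaged 139 ± 13.1 CPM at pH 6.0 and 77.5 ± 3.39 at pH 7.4 (SD, n = 3 each; 0.84 ± 0.08, adjusted p = 2.8e-08). PPARA, which is known to drive fatty acid oxidation genes, averaged 63.7 ± 2.12 CPM at pH 6.0 and 139 ± 5.12 at pH 7.4 (-1.13 ± 0.09, adjusted p = 1.94e-09). Of 8 AMPK genes, 3 were lower and none was higher, against 25.1% lower and 21.9% higher of all tested genes: PRKAB2 (-0.71 ± 0.12, adjusted p = 3.11e-05) and PRKAB1 (-0.39 ± 0.08, adjusted p = 0.000316), which encode the beta subunits, and CAMKK2 (-0.22 ± 0.08, adjusted p = 0.0236), which encodes a kinase upstream of AMPK.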
